A study of Mus musculus with 20 samples.

Results

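Hmox1, Gpx1, Gpx3, Gpx4, Sod1, Sod2, Cat, Txnrd1, Nqo1 and Prdx2 are 10 genes of heme breakdown and antioxidant defence. They were taken by their symbols from the 33495 genes of a table of read counts, and all 10 passed the filter on low counts in each of 3 Cre lines. The table holds RNA-seq of 20 mouse embryonic heart libraries, from mutants in which Kmt2d, a histone H3K4 methyltransferase gene, was deleted and from controls. Mutants were Cre; Kmt2d fl/fl; mTmG/+ and controls were Cre; Kmt2d fl/+; mTmG/+, so that every control also carried Cre, a floxed Kmt2d allele and the Rosa26 mTmG reporter, on C57BL/6. Mesp1Cre, active in early mesoderm, was studied in whole hearts at E9.0 (n = 4 per genotype), the stage of the age label, while the protocol text of the same samples names E11.5. Mef2cAHF::Cre, active in anterior heart field precursors, was studied in right ventricle and outflow tract at E11.5 (n = 3 per genotype). Tnnt2::Cre, active in cardiomyocytes, was studied in whole hearts at E11.5 (n = 3 per genotype). No sorting of the dissected tissue is stated, so each library also holds cells in which Cre was not active, including blood.

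Heme oxygenase breaks heme into biliverdin, iron and carbon monoxide, and its gene Hmox1 is induced by heme, by oxidants acting through NRF2 and by low oxygen. Superoxide dismutases turn superoxide into hydrogen peroxide, which catalase, glutathione peroxidases and peroxiredoxins then remove, with glutathione and thioredoxin kept reduced by NADPH-dependent reductases. Red blood cells carry large amounts of several of these enzymes, among them GPX1, catalase, SOD1 and PRDX2, because hemoglobin is a steady source of oxidants.

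The depth was 21727258 to 45341870 counted reads per library. Kmt2d, listed as Mll2, had 128 to 144 CPM (reads scaled to library size) in Mesp1Cre mutants against 152 to 164 in their controls, and 107 to 116 in Tnnt2::Cre mutants against 119 to 159. In Mef2cAHF::Cre it had 187 to 194 CPM in the libraries labelled mutant and 146 to 156 in those labelled control, which goes against the labels. In this line the sample titles and the library names call 3 libraries mutant that the column names of the table call WT, and the reverse for the other 3. Values therefore follow the labels, and under the column names each Mef2cAHF::Cre difference has the same size and the opposite sign. Blood was followed by an erythroid score, the mean log2 CPM of 23 globin and other red cell genes that include no antioxidant gene. It was 3.21 to 5.04 in Mesp1Cre mutants against 4.33 to 5.84 in controls (exact permutation test, two-sided p = 0.0571). It was 6.46 to 7.39 in Mef2cAHF::Cre libraries labelled mutant against 4.81 to 6.56 in those labelled control (exact permutation p = 0.2), and 5.99 to 8.69 in Tnnt2::Cre mutants against 8.25 to 8.99 (exact permutation p = 0.3). With 3 libraries per group the smallest p this test allows is 0.1. Cardiomyocyte markers were high throughout, at a mean log2 CPM of 9.29 to 10.65 over 11 genes. In whole tissue, fewer cells of a type and less RNA per cell cannot be told apart.

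The enzymes GPX1, GPX3, GPX4 and TXNRD1 carry selenocysteine, an amino acid that is read from a TGA codon. That codon was found in frame inside an annotated coding sequence of each of the 4 genes, and in none of Hmox1, Sod1, Sod2, Cat, Nqo1 and Prdx2. The surrounding coding bases are shown because these genes share the codon and yet differed in direction in the Mesp1Cre line. The TGA codon is in capitals, from GENCODE transcripts on NCBIM37, the mm9 assembly, read on the coding strand, with the codon number counted from the start codon.
Gpx1, codon 47 of 202: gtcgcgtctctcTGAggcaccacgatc
Gpx3, codon 73 of 227: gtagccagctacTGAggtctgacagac
Gpx4, codon 73 of 198: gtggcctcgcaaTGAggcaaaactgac
Txnrd1, codon 498 of 500: cagtctggctgcTGAggttaa

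Promoters are shown for the genes whose level moved most clearly with genotype or with the erythroid score. RefSeq promoter windows of 300 bases around the annotated start were present for 9 of the 10 genes on GRCm38.p6. The entry for Hmox1 is missing. Capitals mark the antioxidant response element TGACNNNGC, to which NRF2 binds, the hypoxia response element core ACGTG or GCGTG, and the GATA letters AGATAA or TGATAA, each searched on both strands. ACGTG matches on both strands within CACGTG, which is also an E-box. Of 32851 promoter windows of this length, 12.4% held the antioxidant response element letters, 43.8% held a hypoxia response element core and 18.6% held the GATA letters, so that a match is a description and not a bound site.
Gpx1, chr9:108338830-108339129, plus strand: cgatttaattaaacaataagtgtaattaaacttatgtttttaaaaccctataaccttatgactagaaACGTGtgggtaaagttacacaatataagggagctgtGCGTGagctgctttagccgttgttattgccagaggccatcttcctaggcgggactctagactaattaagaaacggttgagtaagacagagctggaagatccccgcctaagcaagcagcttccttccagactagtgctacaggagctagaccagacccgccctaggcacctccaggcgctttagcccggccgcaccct
Prdx2, chr8:84969372-84969671, plus strand: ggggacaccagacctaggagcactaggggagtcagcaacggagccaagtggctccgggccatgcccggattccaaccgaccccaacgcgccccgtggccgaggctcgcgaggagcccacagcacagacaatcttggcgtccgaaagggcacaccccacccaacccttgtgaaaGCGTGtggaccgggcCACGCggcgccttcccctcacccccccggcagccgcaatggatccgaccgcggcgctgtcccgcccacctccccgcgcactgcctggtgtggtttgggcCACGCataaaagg
Gpx3, chr11:54902604-54902903, plus strand: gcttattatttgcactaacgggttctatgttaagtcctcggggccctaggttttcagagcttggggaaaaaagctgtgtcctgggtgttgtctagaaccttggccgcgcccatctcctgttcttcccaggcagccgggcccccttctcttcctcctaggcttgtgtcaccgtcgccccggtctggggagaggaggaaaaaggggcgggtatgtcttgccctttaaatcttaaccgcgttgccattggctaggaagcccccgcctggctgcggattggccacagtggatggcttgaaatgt
Txnrd1, chr10:82858956-82859255, plus strand, 1 of 3 annotated starts: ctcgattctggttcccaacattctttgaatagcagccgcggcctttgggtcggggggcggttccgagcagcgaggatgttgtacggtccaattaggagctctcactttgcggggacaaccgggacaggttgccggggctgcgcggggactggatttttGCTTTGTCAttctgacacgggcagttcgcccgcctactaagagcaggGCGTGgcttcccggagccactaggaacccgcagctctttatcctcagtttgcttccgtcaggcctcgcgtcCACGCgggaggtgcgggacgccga

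The Gpx1 window held 2 hypoxia response element cores and the Prdx2 window 3. The Gpx3 window held none of the letters searched. The Txnrd1 window held 1 antioxidant response element and 2 hypoxia response element cores, and among the 14 windows of the 9 genes the only other with the antioxidant response element letters was that of Sod1.

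The level of each gene per length of transcript was compared as FPKM. In E9.0 control hearts (n = 4) Sod1, the cytosolic superoxide dismutase, stood highest at 577 ± 19.1 FPKM (SD). Gpx1 at 240.3 ± 49.7 and Gpx3, the secreted glutathione peroxidase, at 238 ± 32.7 followed and overlapped between libraries. Prdx2, a cytosolic peroxiredoxin, stood at 54.1 ± 7.18 FPKM. Sod2, the mitochondrial superoxide dismutase, at 36.5 ± 2.43 and Cat at 34.6 ± 4.80 overlapped, and so did Txnrd1, the cytosolic thioredoxin reductase, at 20.8 ± 2.04 and Gpx4, which reduces lipid peroxides, at 18.1 ± 1.10. Hmox1 was at 7.35 ± 0.609 FPKM and Nqo1, a quinone reductase, was last at 0.406 ± 0.248.

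In E11.5 Tnnt2::Cre control hearts (n = 3) the order began with Gpx1 at 957 ± 243 FPKM, followed by Sod1 at 483 ± 34.1. Gpx3 at 174 ± 25.2 and Prdx2 at 164 ± 22.1 overlapped, as did Cat at 48.2 ± 8.85 and Sod2 at 45.4 ± 3.52. Hmox1 at 5.70 ± 0.912 and Nqo1 at 4.02 ± 1.44 overlapped at the bottom. Between these controls and the E9.0 controls 8 of the 10 genes differed in a fit of all 20 libraries (edgeR's quasi-likelihood test, Benjamini-Hochberg adjusted p under 0.05), where 39.6% of 18391 genes did. Gpx1 was higher at E11.5 by 2.06 on the log2 scale (SE 0.345, adjusted p = 9.16e-05), Prdx2 by 1.67 (SE 0.226, adjusted p = 9.85e-06) and Nqo1 by 3.34 (SE 0.637, adjusted p = 0.000327). With the erythroid score held fixed only Sod1, at -0.57 (adjusted p = 0.00392), and Txnrd1, at -0.68 (adjusted p = 0.00587), passed, and Gpx1 stood at -0.07 (adjusted p = 0.843). The scores of these controls do not overlap, at 4.33 to 5.84 at E9.0 and 8.25 to 8.99 at E11.5. The values at a fixed score extend slopes found within groups across that gap, so they cannot decide which genes differ at equal blood content. Stage, Cre line and sequencing group cannot be told apart in this comparison.

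To ask what loss of Kmt2d from early mesoderm does to these genes, Mesp1Cre mutants and controls were compared. Hmox1 and Gpx3 were higher in mutants, and Gpx1, Txnrd1 and Prdx2 were lower. Gpx4, Sod1, Sod2, Cat and Nqo1 did not pass the test. These are 2 genes higher and 3 lower of 10, where 6.17% of 15883 genes tested were called higher and 5.29% lower at an adjusted p under 0.05 in edgeR's quasi-likelihood test. Replicates are separate libraries by their labels, and p-values measure the spread between them, since nothing says which came from separate embryos.

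**Figure D1:**
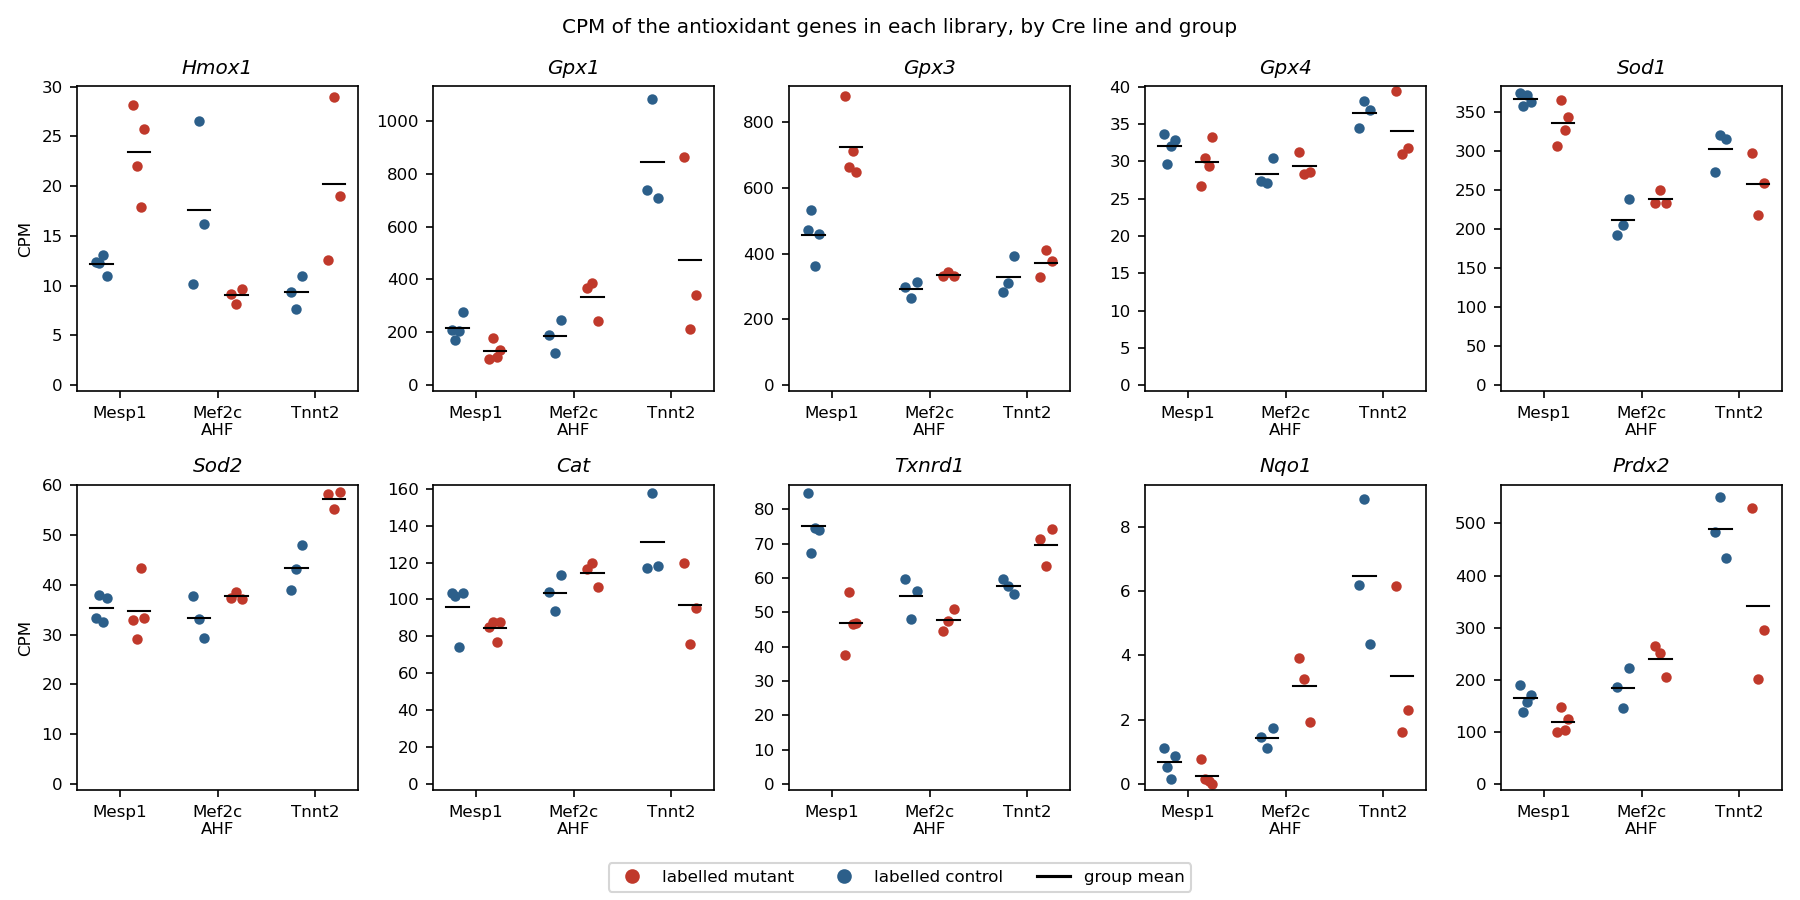
CPM (reads scaled to library size, vertical axes from 0) of the 10 genes in each of the 20 libraries, in panels by gene, with Mesp1Cre, Mef2cAHF::Cre and Tnnt2::Cre from left to right, red points for labelled mutants, blue points for labelled controls and a black line for each group mean. Hmox1 in Mesp1Cre mutants sits between 17.9 and 28.2 CPM, above all 4 controls, while Gpx1 in Tnnt2::Cre mutants spans 213 to 863 CPM.

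Hmox1 was measured in Mesp1Cre mutants at 28.2, 22.1, 17.9 and 25.8 CPM and in controls at 12.4, 12.3, 13.1 and 10.9. All 4 mutants lay above all 4 controls. Hmox1 was thus higher by 0.95 on the log2 scale, or 1.93-fold (SE 0.15, adjusted p = 0.00201). Gpx3 was measured in mutants at 880, 663, 712 and 648 CPM and in controls at 472, 533, 364 and 461. Again no mutant overlapped a control, and the difference was 0.67 (SE 0.12, adjusted p = 0.00368).

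Txnrd1, which returns oxidized thioredoxin to its working form, was measured in mutants at 37.6, 55.9, 46.6 and 47.0 CPM and in controls at 84.7, 67.2, 74.4 and 74.1. The groups did not overlap, and Txnrd1 was lower in mutants by -0.68 on the log2 scale (SE 0.12, adjusted p = 0.00376). Hmox1, Gpx3 and Txnrd1 were the 3 genes of 10 whose groups did not overlap, where 17.7% of all genes tested had this property. Each of the 3 stayed past the threshold with each library left out in turn.

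Gpx1, the abundant cytosolic glutathione peroxidase, was measured in mutants at 99.4, 177, 105 and 133 CPM and in controls at 208, 171, 206 and 275. The second mutant lay above the lowest control, and the difference was -0.74 (SE 0.17, adjusted p = 0.0165). Prdx2, a peroxiredoxin that is a major protein of red cells, was measured in mutants at 100.3, 147, 104 and 126 CPM and in controls at 190, 139, 157 and 171. Its groups overlapped too, at a difference of -0.46 (SE 0.13, adjusted p = 0.0351). Gpx1 was lost without control replicate 4, mutant replicate 1 or mutant replicate 3, with values from -0.92 to -0.60 over the 8 leave-outs. Prdx2 passed in 2 of 8 leave-outs, without control replicate 2 or mutant replicate 2, and its values ran from -0.57 to -0.38.

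The other 5 genes were close in mutants and controls except for Nqo1, which was barely detected. Gpx4 averaged 29.9 ± 2.75 CPM in the mutants against 32.1 ± 1.74 in the controls (SD, n = 4), a difference of -0.10 on the log2 scale (SE 0.11). Sod1 stood at 335 ± 25.0 and 366 ± 7.52 (-0.13, SE 0.07), and Sod2 at 34.7 ± 6.15 and 35.3 ± 2.68 (-0.03, SE 0.13). Cat stood at 84.3 ± 5.11 and 95.8 ± 14.5 CPM (-0.18, SE 0.11), with controls at 104, 102, 74.0 and 103. None of these 4 differences passed, at adjusted p from 0.261 to 0.93. Nqo1 had 0 to 18 reads in mutants and 4 to 30 in controls, and its difference of -1.39 had an SE of 0.92.

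The Mesp1Cre groups differed in other ways that moved with these genes. Of 14 hypoxia genes in a marker list, 14 rose in mutants, with their mean log2 CPM at 6.77 to 7.43 in mutants and 5.24 to 5.60 in controls. That list was chosen with earlier results of these data known. Of 23 red cell genes 10 fell and none passed as higher, although the adult globin genes Hbb-b1 and Hbb-b2 stood at 0.98 (adjusted p = 0.136) and 1.19 (adjusted p = 0.0554), and at 1.78 (adjusted p = 0.00013) and 2.25 (adjusted p = 0.000193) with the score of all 23 held fixed. Both genes are part of that score, so their values at a fixed score are not independent of it. The macrophage list of 15 genes, of which 5 passed the filter on low counts, stood at -2.39 to -1.93 in mutants and -1.91 to -1.27 in controls. Of those 5 genes 3 had a difference above 0 and 1 was called lower, at a median of 0.11. The endothelial list of 8 genes stood at 5.77 to 6.01 in mutants and 5.39 to 5.61 in controls. The part of the hypoxia, macrophage and endothelial lists in the antioxidant results was not tested.

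Several of these enzymes are abundant in red cells, so each gene was next set against the erythroid score of its library. In a fit of all 20 libraries by line and genotype, the score was added as a covariate, which does not use which Mef2cAHF::Cre group is the mutant. Gpx1 rose by 0.62 log2 units per unit of the score (SE 0.045, adjusted p = 1.18e-08), Prdx2 by 0.39 (SE 0.040, adjusted p = 1.87e-06) and Sod1 by 0.11 (SE 0.032, adjusted p = 0.0371). Hmox1 fell by 0.34 per unit (SE 0.081, adjusted p = 0.013). They are 3 genes with a positive slope and 1 with a negative slope of 10, where 4.17% and 2.62% of 18391 genes had one. The Gpx1 slope lay at percentile 98.5 and that of Prdx2 at percentile 96.4 of all genes, and that of Hmox1 at percentile 5.62.

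Cat (0.16, adjusted p = 0.0533), Gpx4 (0.11, adjusted p = 0.0654), Txnrd1 (0.11, adjusted p = 0.102), Gpx3 (-0.10, adjusted p = 0.309), Nqo1 (0.42, adjusted p = 0.416) and Sod2 (-0.03, adjusted p = 0.795) had no slope past the threshold in that test. The slopes of Gpx1 and Prdx2 passed without each line and without each library. That of Hmox1 did not pass without the Tnnt2::Cre libraries (-0.26, adjusted p = 0.346) or without the Mef2cAHF::Cre libraries (-0.30, adjusted p = 0.0826), nor without Tnnt2::Cre mutant replicate 1 (-0.31), Tnnt2::Cre mutant replicate 2 (-0.30) or Mef2cAHF::Cre control replicate 2 (-0.28). Without the Mesp1Cre libraries Nqo1 (0.71, adjusted p = 0.000446) and Cat (0.22, adjusted p = 0.00266) did have a slope past it, and Cat also passed with a score of the non-globin genes alone (0.16, adjusted p = 0.0427). That of Sod1 did not pass without any 1 of the 3 lines, at adjusted p from 0.0766 to 0.418.

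**Figure D2:**
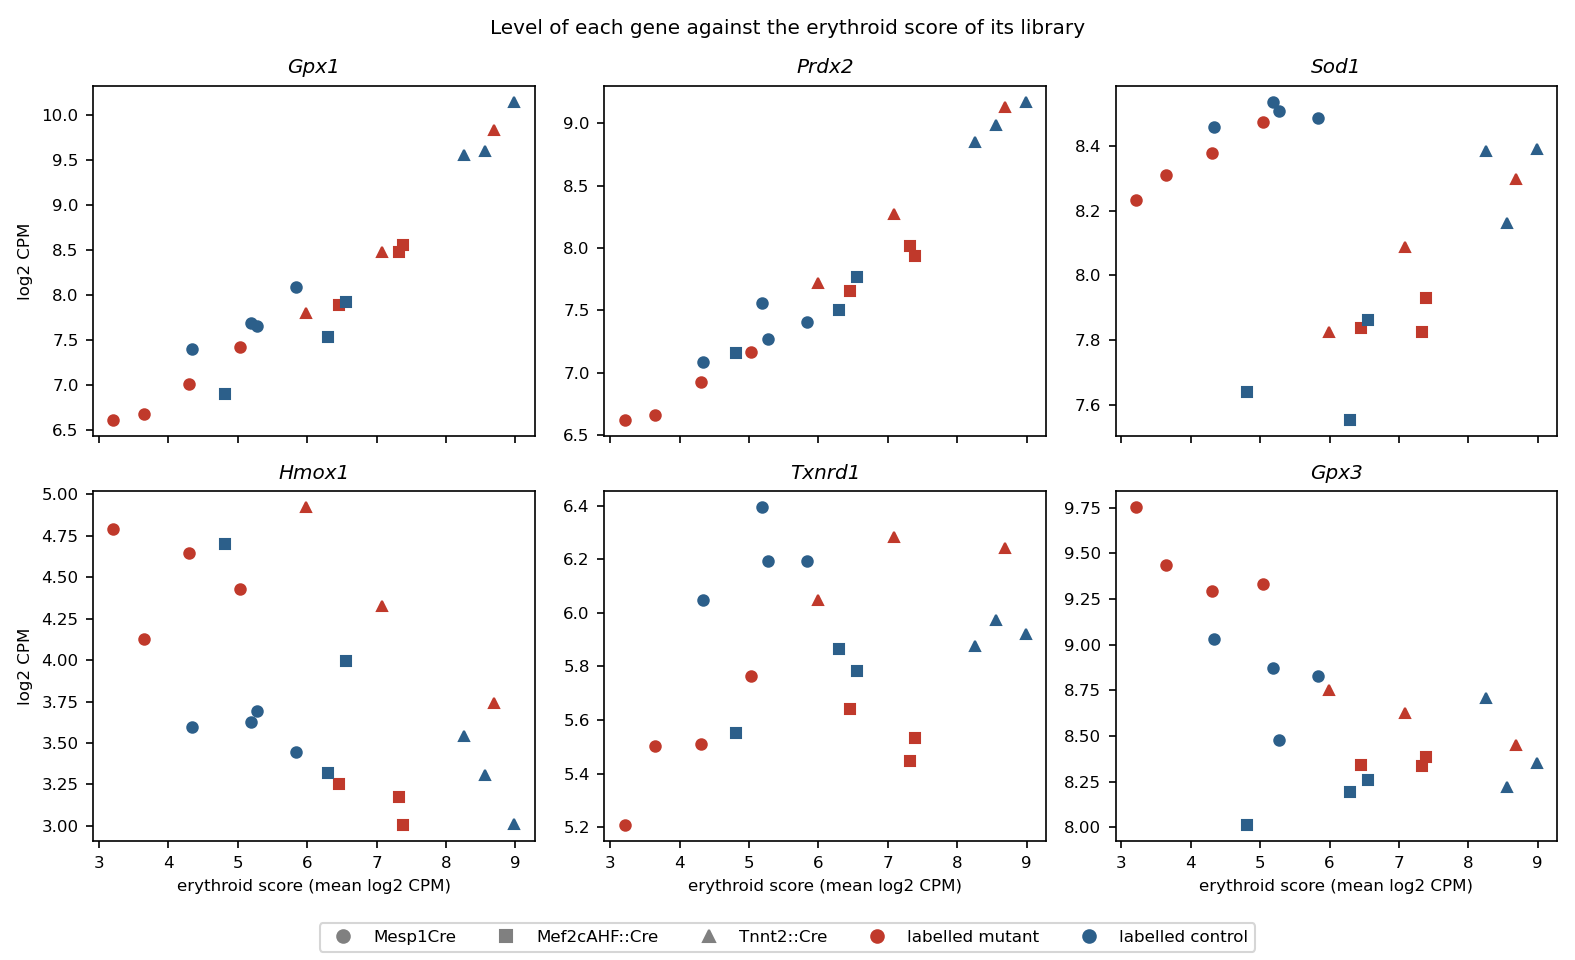
Level of 6 genes (log2 CPM, vertical axes) against the erythroid score of the same library (mean log2 CPM of 23 red cell genes, horizontal axes), with circles for Mesp1Cre, squares for Mef2cAHF::Cre, triangles for Tnnt2::Cre, red for labelled mutants and blue for labelled controls. Gpx1 and Prdx2 climb with the score across scores of 3.21 to 8.99, while Txnrd1 mutants of Mesp1Cre lie below their controls. The scores of these groups overlap only in that mutant replicate 2, at 5.04, lies above control replicate 2, at 4.33.

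With the erythroid score held fixed in that fit, the Mesp1Cre difference of Gpx1 was -0.09 (SE 0.11, adjusted p = 0.647) and that of Prdx2 -0.06 (SE 0.098, adjusted p = 0.753). Gpx3 stayed higher in mutants by 0.54 (SE 0.13, adjusted p = 0.00991) and Txnrd1 lower by -0.58 (SE 0.098, adjusted p = 0.000751). Hmox1 stood at 0.55 (SE 0.20, adjusted p = 0.0806). Thus 2 of 10 genes were called at a fixed score, where 10.3% of all genes were. In the same edgeR fit without the score, Gpx1 stood at -0.76 (adjusted p = 0.1) and Prdx2 at -0.48 (adjusted p = 0.116). These genes were therefore already uncalled in that fit before the score was added, while Hmox1, Gpx3 and Txnrd1 passed there. In a fit within the 8 Mesp1Cre libraries, with the score as a covariate, none of the 10 passed in edgeR. Of all 15883 genes tested 298 passed there, against 1821 without the score. Gpx3 stood at 0.45 (adjusted p = 0.109), Txnrd1 at -0.46 (adjusted p = 0.113) and Hmox1 at 0.86 (adjusted p = 0.0544).

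**Figure D3:**
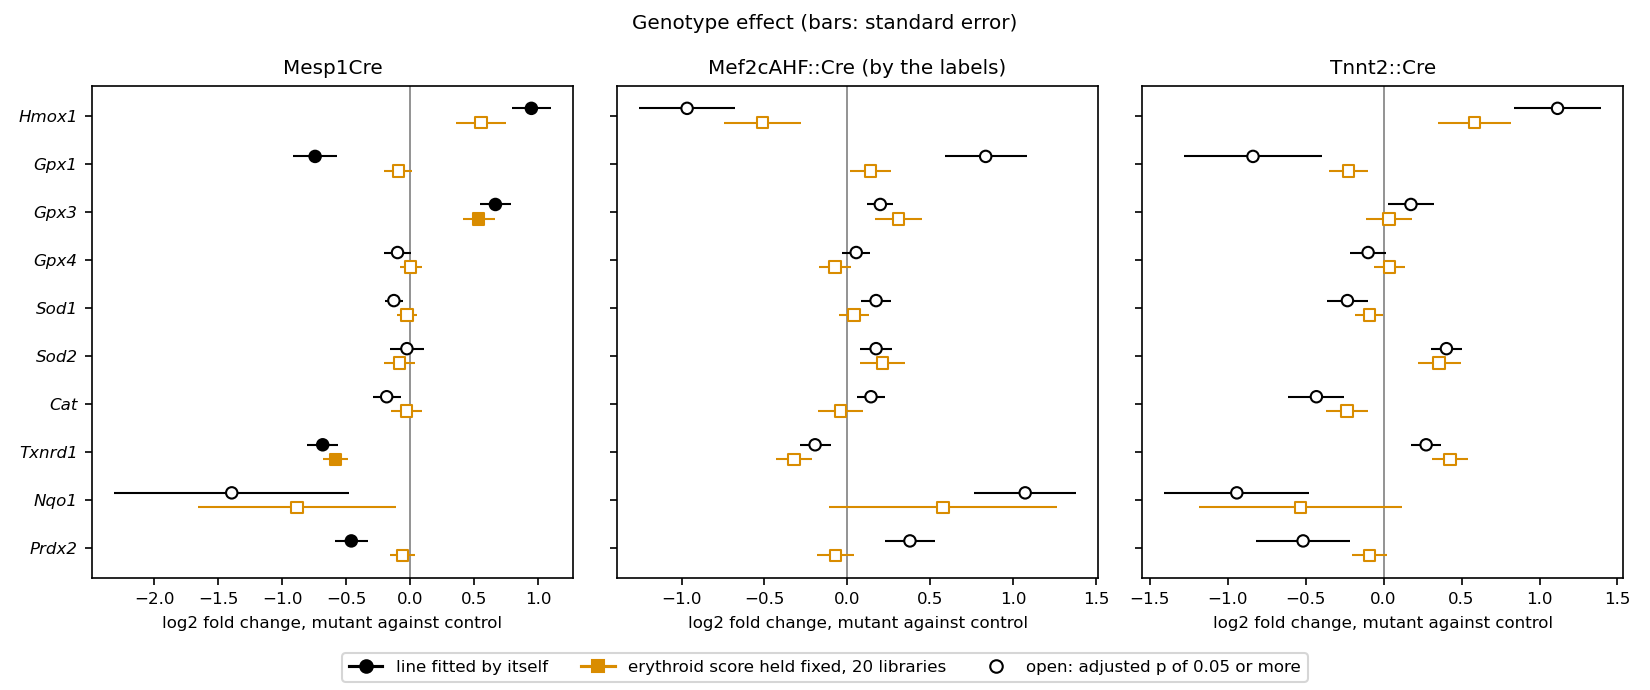
Difference between mutants and controls (log2 fold change, horizontal axes) of the 10 genes in each Cre line, in black circles from each line fitted by itself and in orange squares from the 20-library fit with the erythroid score held fixed, with bars for the standard error and filled symbols for an adjusted p under 0.05. In Mesp1Cre Gpx1 moves from -0.74 to -0.09 and Prdx2 from -0.46 to -0.06, while Txnrd1 moves from -0.68 to -0.58. Circles and squares differ in the libraries fitted as well as in the score. Without the score the larger fit gave -0.76 for Gpx1 and -0.48 for Prdx2 in Mesp1Cre, and neither passed.

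In the Mef2cAHF::Cre line, which tests deletion in the anterior heart field, none of the 10 genes passed in edgeR's quasi-likelihood test, where 2.85% of 16920 genes did. At an unadjusted p under 0.05 there were 5, where 3037 of the 16920 genes were. DESeq2 called 2, Hmox1 and Nqo1. limma on log2 FPKM called 0. Hmox1 was measured at 9.18, 8.17 and 9.67 CPM in libraries labelled mutant and 10.2, 26.5 and 16.2 in those labelled control. The groups did not overlap, and the difference was -0.97 by the labels, or 0.97 under the column names (SE 0.29, adjusted p = 0.116).

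Gpx1 was measured at 366, 386 and 243 CPM in libraries labelled mutant and 189, 122 and 247 in those labelled control. The groups overlapped, and the difference was 0.83 by the labels, or -0.83 under the column names (SE 0.25, adjusted p = 0.114). With the erythroid score held fixed it was 0.14 by the labels (SE 0.12, adjusted p = 0.883), and that of Hmox1 was -0.51 (SE 0.23, adjusted p = 0.456).

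Nqo1, at 3.93, 3.27 and 1.94 CPM against 1.47, 1.12 and 1.74, differed by 1.07 by the labels (SE 0.31, adjusted p = 0.105). Gpx3, at 331, 343 and 331 CPM against 299, 264 and 313, differed by 0.20 (SE 0.08, adjusted p = 0.22). Hmox1, Gpx3 and Nqo1 were the 3 of 10 genes whose groups did not overlap, where 24% of all genes tested had this property. Prdx2 differed by 0.38 (SE 0.15, adjusted p = 0.223) and Txnrd1 by -0.19 (SE 0.09, adjusted p = 0.319). Differences of Gpx4, Sod1, Sod2 and Cat ran from 0.05 to 0.17 by the labels, each smaller than 2 standard errors in size, and none passed.

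Other markers moved with the Mef2cAHF::Cre groups as well. The control-labelled library of replicate 2 had the highest Hmox1 and the lowest Gpx1 of the line, with the lowest erythroid score, 4.81, and the highest hypoxia score, 6.59. The macrophage list stood at 0.90 to 1.23 in libraries labelled mutant and 1.29 to 1.90 in those labelled control, and those of cardiomyocytes, at 9.76 to 9.89 against 9.29 to 9.70, and epicardium, at 4.77 to 4.84 against 4.87 to 5.14, did not overlap between the groups either. Hypoxia genes stood at 5.21 to 5.40 against 5.49 to 6.59. The part of these lists in the results was not tested. The 7 globin genes by themselves stood at 9.53 to 10.68 in libraries labelled mutant and 7.68 to 9.38 in those labelled control. With control replicate 1 left out Hmox1 passed the test at -1.25, and with control replicate 2 left out it stood at -0.54 and did not. With all genes of at least 1 count retained, 4 of the 10 passed by the labels, Hmox1, Gpx1, Nqo1 and Prdx2, and the count over all genes went from 482 to 1311.

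In the Tnnt2::Cre line, which tests deletion in cardiomyocytes, again none of the 10 genes passed in edgeR's quasi-likelihood test, where 0.293% of 17045 genes did. At an unadjusted p under 0.05 there were 4, where 2034 of the 17045 genes were. DESeq2 called 1, Hmox1. limma on log2 FPKM called 0. Hmox1 was measured at 12.5, 29.0 and 19.1 CPM in mutants and 9.39, 7.64 and 10.9 in controls. All mutants lay above all controls, at a difference of 1.12 (SE 0.28, adjusted p = 0.195). With the erythroid score held fixed it was 0.58 (SE 0.23, adjusted p = 0.401).

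Sod2 was measured at 58.2, 55.2 and 58.6 CPM in mutants and 38.9, 43.1 and 48.0 in controls, a difference of 0.40 (SE 0.10, adjusted p = 0.199). Txnrd1 was measured at 71.4, 63.4 and 74.2 CPM in mutants and 59.9, 57.8 and 55.3 in controls, a difference of 0.27 (SE 0.09, adjusted p = 0.327). Hmox1, Sod2 and Txnrd1 were the 3 of 10 genes whose groups did not overlap in this line, where 17.1% of all genes tested had this property.

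Gpx1 was measured at 863, 213 and 339 CPM in Tnnt2::Cre mutants and 738, 1083 and 709 in controls. The first mutant lay among the controls and the other mutants well below them, and the difference was -0.84 (SE 0.44, adjusted p = 0.497). Prdx2, at 530, 202 and 295 CPM against 483, 551 and 434, followed the same order of libraries, with a difference of -0.52 (SE 0.30, adjusted p = 0.541). The erythroid scores of these 3 mutants were 8.69, 5.99 and 7.08, against 8.25 to 8.99 in controls. With the score held fixed Gpx1 stood at -0.22 (SE 0.13, adjusted p = 0.627) and Prdx2 at -0.09 (SE 0.11, adjusted p = 0.912).

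Nqo1 differed by -0.94 (SE 0.46) and Cat by -0.43 (SE 0.18) in Tnnt2::Cre, and Sod1, Gpx4 and Gpx3 by -0.23 to 0.18, with no adjusted p under 0.396. Mutant replicate 1, the mutant with a control-like erythroid score, decided the count in this line. Without it 4 of the 10 genes passed, Hmox1 at 1.37, Gpx1 at -1.61, Nqo1 at -1.73 and Prdx2 at -0.98, and the count over all genes went from 50 to 896. Without mutant replicate 2 none of the 10 passed in edgeR, with Hmox1 at 0.76, Gpx1 at -0.49, Nqo1 at -0.60 and Prdx2 at -0.25. The hypoxia list stood at 5.52 to 6.54 in mutants and 5.21 to 5.49 in controls, with mutant replicate 2 highest, and its part in the result was not tested.

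Whether a gene differed between lines was tested on the difference of the genotype effects. Between Mesp1Cre and Tnnt2::Cre 1 of 10 genes passed, where 3.04% of all genes did. This was Txnrd1, with a Mesp1Cre minus Tnnt2::Cre difference of -0.97 (SE 0.16, adjusted p = 0.00429), which was -1.01 with the erythroid score held fixed (adjusted p = 0.000271). It passed without each of the 20 libraries.

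For Mesp1Cre minus Mef2cAHF::Cre by the labels 3 of 10 genes passed, where 11.3% of all genes did. Hmox1 differed by 1.90 (SE 0.38, adjusted p = 0.00275), Gpx1 by -1.59 (SE 0.49, adjusted p = 0.0396) and Txnrd1 by -0.51 (SE 0.16, adjusted p = 0.044). Over the 20 fits that each left out 1 library Hmox1 passed in 20, Gpx1 in 11 and Txnrd1 in 5. With the erythroid score held fixed none of the 3 passed, at adjusted p from 0.0762 to 0.602. By the column names 2 of 10 passed, where 1.63% of all genes did, Gpx3 at 0.85 (SE 0.19, adjusted p = 0.0306) and Txnrd1 at -0.90 (SE 0.16, adjusted p = 0.0111). Txnrd1 passed without each of the 20 libraries in turn and Gpx3 in 14 of the 20 fits. With the score held fixed these were 0.84 (adjusted p = 0.00755) and -0.90 (adjusted p = 0.000815).

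For Mef2cAHF::Cre minus Tnnt2::Cre by the labels Hmox1 alone passed, at -2.08 (SE 0.40, adjusted p = 0.00602), where 3.19% of all genes did. It stood at -1.10 (adjusted p = 0.126) with the erythroid score held fixed, where Txnrd1 passed at -0.75 (adjusted p = 0.024). By the column names 0% of all genes passed in edgeR, with 472 of 18391 at an unadjusted p under 0.05, and 1 of the 10, Sod2, named after its values were seen.

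The same genes were placed in a wider set of 83 genes in 10 lists of antioxidant and heme handling functions. In Mesp1Cre 73 were tested, of which 9 were higher in mutants and 11 lower, beside the 6.17% and 5.29% of all genes given above, with a median difference of -0.16 against -0.00182 over all genes. The thioredoxin system had 3 of 7 genes lower, Txnrd1, Txnip and Txn1, and none higher. Catalase and peroxiredoxins had 3 of 7 lower, Prdx1, Prdx2 and Prdx3, and 1 higher, Prdx4, which works in the endoplasmic reticulum. Genes of these lists, and Fth1, are named after their values were seen. The NRF2 and quinone targets had 3 of 8 higher, Abcc1, Gstm1 and Ugdh, and none lower. Of these 8 genes 4 had a difference above 0, at a median of 0.06. With the erythroid score held fixed in edgeR, Gstm1 stood at 0.45 (adjusted p = 0.0847) and Ugdh at 0.36 (adjusted p = 0.0282). This list is not a full set of NRF2 targets. Hmox1, which was higher, and Txnrd1, which was lower, are in other lists. No gene of the superoxide dismutase or selenoprotein synthesis lists passed in edgeR. At an unadjusted p under 0.05 there were 0 of 3 and 3 of 9, where 4267 of 15883 genes were.

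Among called genes whose average log2 CPM reached 1, the differences of greatest size in Mesp1Cre were those of Slc7a11, Abcc1 and Maff. Slc7a11, the cystine importer that feeds glutathione synthesis, averaged 4.94 ± 1.07 CPM in the mutants against 1.28 ± 0.189 in the controls (SD, n = 4), a difference of 1.94 (SE 0.30, adjusted p = 0.00165). Abcc1, an exporter of glutathione conjugates, differed by 1.22 (SE 0.22, adjusted p = 0.00446). Maff, a small MAF protein that pairs with NRF2 or BACH1, differed by 1.01 (SE 0.24, adjusted p = 0.0155). With the erythroid score held fixed Slc7a11 stood at 1.49 (adjusted p = 0.011), Abcc1 at 0.97 (adjusted p = 0.00595) and Maff at 0.39 (adjusted p = 0.327). Fth1, the ferritin heavy chain, was lower by -0.51 and stood at -0.01 (adjusted p = 0.985) with the score held fixed.

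In Mef2cAHF::Cre 75 of the 83 genes were tested and 5 passed, beside 2.85% of all genes, with a median difference by the labels of 0.05 against -0.01 over all genes. By the labels Lrp8, a receptor for selenoprotein P, was lower by -0.99 (SE 0.15, adjusted p = 0.0136). Txnip, which binds and restrains thioredoxin, was higher by 0.97 (SE 0.15, adjusted p = 0.0176) and Gsta4, a glutathione transferase, by 0.63 (SE 0.12, adjusted p = 0.0295). The other 2 were Ggt5 and Idh2, both higher by the labels, named here after their values were seen. By the column names each sign turns. Txnip was the one listed gene past the threshold in more than 1 line, lower in Mesp1Cre mutants by -0.59 (SE 0.16, adjusted p = 0.0311) and, by the column names, lower in Mef2cAHF::Cre mutants too.

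In Tnnt2::Cre 75 were tested and none passed in edgeR. At an unadjusted p under 0.05, 8 were higher and 3 lower, beside 1059 higher and 975 lower of 17045 genes. DESeq2 called 2 of the 75 and limma on log2 FPKM 0. Without mutant replicate 1 edgeR called 16.

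**Figure D4:**
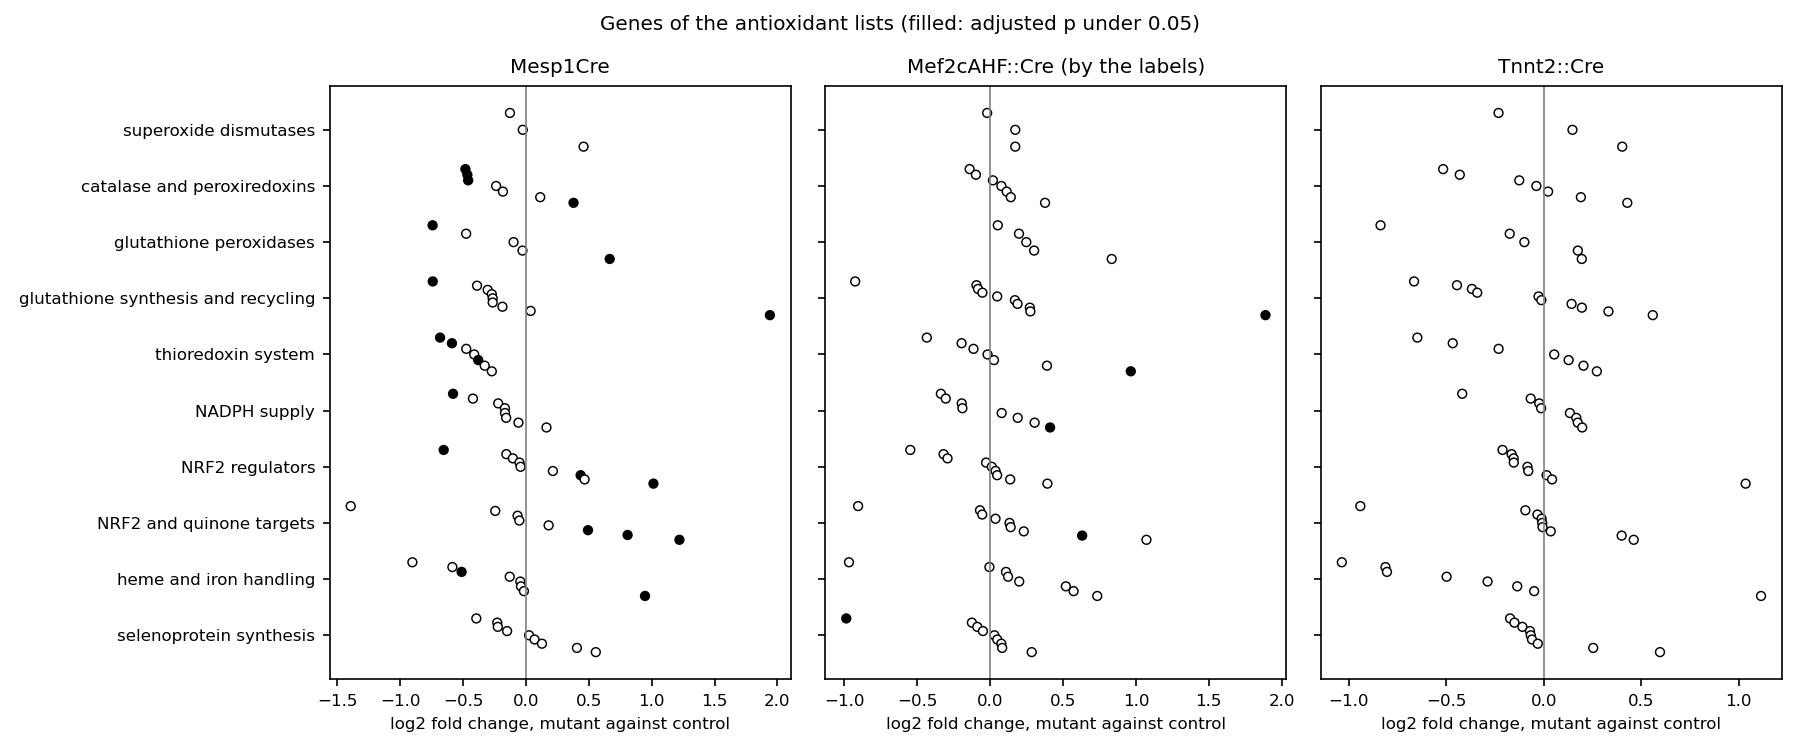
Difference between mutants and controls (log2 fold change, horizontal axes) of the genes of 10 antioxidant and heme handling lists, 1 point per gene, in each Cre line, with filled points for an adjusted p under 0.05. Mesp1Cre has 20 filled points on both sides of 0, Mef2cAHF::Cre 5 and Tnnt2::Cre none.

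For 4 genes the profiles most like them were sought among 15350 genes over the 20 libraries. Pearson correlation of log2 CPM was used after the mean of each line was taken off. Shared sources that remain include genotype, blood content, depth and other differences within a line, such as the hypoxia score. For Gpx1 the most alike genes were Slc25a37, the mitochondrial iron importer mitoferrin (r = 0.986), Fth1 (r = 0.983) and Car2, carbonic anhydrase II (r = 0.983). For Prdx2 they included Fth1 (r = 0.977) and Gpx1 (r = 0.973). Cat was most like Prkab1 (r = 0.93), Ncoa4, which delivers ferritin for iron release (r = 0.905), and Add1, a protein of the membrane skeleton (r = 0.893). Hmox1 was most like Map2k1 (r = 0.944), Igf2bp2 (r = 0.935) and Tiparp (r = 0.926).

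Positions were taken on mm9 from the table, counted from 1. Hmox1 lies on chromosome 8 from 77617521 to 77624488, Gpx1 on chromosome 9 from 108241605 to 108242669, Gpx3 on chromosome 11 from 54715955 to 54723879, Txnrd1 on chromosome 10 from 82321951 to 82360469 and Prdx2 on chromosome 8 from 87493486 to 87498733. Reads are counted over exons. Exons of Prdx2 overlap those of Rnaseh2a on the other strand, which cannot be told apart in counts without strand. The GENCODE exons of each gene were cut into 100-base stretches, taken every 10 bases. Of these, 76.4% in Sod1, 31% in Gpx4, 30.6% in Sod2 and 8.8% in Prdx2 aligned elsewhere in the genome at 97% identity or more. None did in the other 6 genes. Values of Sod1, Gpx4, Sod2 and Prdx2 could thus include or lose reads of such copies. For Sod2 there were 373 stretches, while its deposited length is 915 bases, so the share of counted bases with a copy can differ.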

How the data were processed

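RNA-seq was done on 20 libraries amplified with the NuGEN Ovation v2 kit, which is not stated to keep strand. The authors aligned reads to mm9, with TopHat2 2.0.8b named in the submitters' processing notes, state FeatureCounts for counting reads by gene and USeq for expression, and deposited a table that its name credits to USeq, with whole-number read counts per gene, FPKM values and 20 variance-stabilised columns that were not used. Groups follow the sample titles. Values for Mef2cAHF::Cre are given under the titles and under the column names.

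Each line was fitted by itself in edgeR 4.0.16 (R 4.3.3) on the deposited counts, with filterByExpr, TMM scaling and the quasi-likelihood F test, and p-values were adjusted by the Benjamini-Hochberg method over all genes tested, with calls at 0.05. The standard error is the log2 fold change divided by the square root of F. Differences between lines, the erythroid slope and the comparison of controls came from a fit of 20 libraries over 18391 genes, with 13 residual degrees of freedom when the score was included. CPM uses TMM library sizes, and scores use a prior count of 2. FPKM was used for levels between genes and, with limma 3.58.1 on log2 of FPKM plus 0.1 or 1, as an alternative. DESeq2 1.42.0, a replicate block, other filters and leaving out each library were further alternatives. Copies of exon sequence were sought with minimap2 2.31-r1302. The scripts were tested on simulated data. At 21727258 to 45341870 counted reads per library, genes near 1 CPM, such as Nqo1 at E9.0, rest on few reads.

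The 10 genes, the lists and the tests were chosen with earlier results of these data known. All 10 genes are named. List genes are named where they passed in at least 2 lines or, among those called whose average log2 CPM reached 1, had the 3 largest differences of a line. Further list genes that passed were named after their values were seen, as were Hbb-b1 and Hbb-b2. The 3 most alike genes are named for Hmox1, Gpx1, Cat and Prdx2, except 1 that is not reported here.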

Additional observations from a re-analysis of the deposited data

Results flagged for a closer look

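Cat in Mesp1Cre control replicate 3 stood at 74.0 CPM, while the other 3 controls stood at 102 to 104, a gap of 0.936 of the whole range of the group. Of the groups of 4 examined in this way, chance alone puts about 1 in 20 past the limit.

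The genotype effect differed between lines for several genes in edgeR's quasi-likelihood test with Benjamini-Hochberg adjustment. Txnrd1 differed by -0.97 on the log2 scale for Mesp1Cre minus Tnnt2::Cre, with 4 of 4 Mesp1Cre mutants below all their controls and 3 of 3 Tnnt2::Cre mutants above theirs. For Mesp1Cre minus Mef2cAHF::Cre by the labels, Hmox1 differed by 1.90, Gpx1 by -1.59 and Txnrd1 by -0.51. By the column names Gpx3 differed by 0.85 and Txnrd1 by -0.90 in the same pair of lines. For Mef2cAHF::Cre minus Tnnt2::Cre by the labels, Hmox1 differed by -2.08. The Hmox1 and Gpx1 differences rest on which Mef2cAHF::Cre group is the mutant, since by the column names they were -0.04 and 0.07 against Mesp1Cre and did not pass.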

How the results depend on the processing

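Of 488 comparisons with an alternative, 372 were labelled unchanged, 55 lost a call or fell in count, 24 gained a call or rose in count and 37 turned sign. For a value of a single gene, unchanged means the same direction and the same side of the threshold. Of the 372, 69 were counts of genes, for which unchanged means a similar count. A count that moved only slightly is thus among them. Hmox1, Gpx3 and Txnrd1 kept their sign in Mesp1Cre in each alternative, with the erythroid score included. Causes of the changes were not tested. Nqo1 at E9.0 is limited by depth.

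Counts are given for the 10 genes, the 83 listed genes and all genes in that order where more than 1 changed. DESeq2 called 2, 11 and 1098 for Mef2cAHF::Cre, then 1, 2 and 370 for Tnnt2::Cre, against 0, 5 and 482 and 0, 0 and 50. All genes with at least 1 count gave 4, 15 and 1311 for Mef2cAHF::Cre, and 120 of all genes for Tnnt2::Cre. One fit in 6 groups gave 3 of the 10 and 3593 of all genes in Mesp1Cre, against 5 and 1821, then 1 listed gene and 129 of all for Mef2cAHF::Cre, and 82 for Tnnt2::Cre. The erythroid score within the line gave 0, 1 and 298 in Mesp1Cre, 3 listed and 267 of all for Mef2cAHF::Cre, and 116 for Tnnt2::Cre. In the 20-library fit it gave 2 and 9 listed in Mesp1Cre, 241 of all for Mef2cAHF::Cre, and 103 for Tnnt2::Cre. limma on FPKM plus 0.1 gave 3 and 12 listed in Mesp1Cre, 3 listed and 291 of all for Mef2cAHF::Cre, and 22 for Tnnt2::Cre, and plus 1 gave 3 and 12, 2 and 253, and 19. FPKM moved the median of all genes to 0.148, -0.131 and 0.111 in the 3 lines. With the score added, 0 of the 10 genes differed between Mesp1Cre and Mef2cAHF::Cre by the labels and 2 of the 10 between control stages, the latter chosen after seeing the data. Slopes were called for 2 of the 10 genes without Mef2cAHF::Cre and 2 without Tnnt2::Cre.

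Signs turned for Gpx4 in Mesp1Cre (0.021 and 0.0035 with the score, 0.055 and 0.053 in limma), and for Sod1 (0.027 and 0.027) and Sod2 (0.12 and 0.12) in limma there. For Mef2cAHF::Cre they turned for Gpx4 (-0.022 and -0.075 with the score, -0.080 and -0.076 in limma), and with the score for Cat (-0.024 and -0.041) and Prdx2 (-0.070). The column names turned Hmox1 to 0.97, Gpx1 to -0.83, Gpx3 to -0.20, Gpx4 to -0.053, Sod1 and Sod2 to -0.17, Cat to -0.14, Txnrd1 to 0.19, Nqo1 to -1.07 and Prdx2 to -0.38. For Tnnt2::Cre signs turned with the score for Gpx3 (-0.017), Prdx2 (0.068) and Gpx4 (0.070 and 0.039), and in limma for Gpx4 (0.0083 and 0.0080). Slopes turned for Sod2 (0.0088 without Mesp1Cre) and Nqo1 (-0.11 without Tnnt2::Cre). With the score, the stage difference turned for Gpx1 (-0.067), Gpx4 (-0.096) and Cat (-0.0095), and with a score of non-globin genes the fixed-score Mesp1Cre value of Gpx1 turned to 0.00092.

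Leaving out each library gave 3 to 5 of the 10 genes, 10 to 20 listed and 1052 to 2161 of all genes in Mesp1Cre. It gave 0 to 1, 0 to 6 and 75 to 662 for Mef2cAHF::Cre, and for Tnnt2::Cre 0 to 4, 0 to 16 and 4 to 896. Among the 10 genes it gave 2 to 5 slopes, 2 to 3 genes at a fixed score in Mesp1Cre and 5 to 8 between stages. In the differences between lines it gave 1 to 2, 1 to 4, 1 to 2 and 1 to 5 of the 10, in the order of the report. Sod2 in Mesp1Cre ran from -0.14 to 0.063, and at a fixed score Gpx1 from -0.19 to 0.014 and Prdx2 from -0.14 to 0.016.

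With a replicate block 4 of the 10 genes passed in Mesp1Cre, with Prdx2 lost at -0.47, and 0 in the other lines, with 28 of all genes in Tnnt2::Cre. Same-numbered libraries correlated at -0.03 to 0.09, -0.01 to 0.18 and -0.04 to 0.06 in the 3 lines. Other pairs ran from -0.07 to 0.06, -0.24 to 0.16 and -0.08 to 0.03 in the same order. The highest value of each line was that of a same-numbered pair. With so few libraries these values cannot decide whether same-numbered libraries belong together.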
